A study of Mus musculus with 23 samples.

Results

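The 38 genes described here are known components of mitosis, the step in which a cell separates its duplicated chromosomes. They were listed by name from known function, by a rule that uses no measured value, although earlier results of these data were known when the list was made. All 38 were found among the 24475 mouse genes of the table and passed the filter on low values. They encode the cyclins and kinases that start mitosis, the kinetochore proteins that tie chromosomes to spindle fibers, the checkpoint that waits until every chromosome is tied, the ubiquitin machinery that then releases the chromatids, and the motors and bundlers that shape the spindle and split the cell. Their mRNAs accumulate as a cell moves from DNA replication into division, so in bulk tissue their level follows how many cells are dividing as well as how much each dividing cell makes. More dividing cells and more mRNA per dividing cell cannot be told apart in these samples. In the thymus, division is heaviest in the immature cells that have just completed a working T-cell receptor beta chain, and most of the later CD4+CD8+ thymocytes are at rest.

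RNA sequencing was performed on 23 mouse samples, each 1 library. The 6 controls were normal thymus of C57BL/6 mice, whose age is not given in the sources used here. The other 17 were tumor-bearing spleens of BALB/c Rag2-/-Il2rg-/- mice, which were young adults when grafted and whose age at sampling is not given per sample in the sources used here. These mice carried a thymus lobe of a newborn donor under the kidney capsule, from which T-cell acute lymphoblastic leukemia, abbreviated T-ALL, had arisen. The donor thymus was wild type in 14 (WT T-ALL; by the study's methods of the B6.SJL-Ptprca Pep3b/BoyJ line, which is congenic to C57BL/6 and carries Ptprc allele CD45.1) and Notch3 knockout in 3 (Notch3 KO T-ALL; β-galactosidase inserted into the first coding exon of Notch3). Host mice without Rag2 and Il2rg make no T, B or NK cells of their own but keep erythroid and myeloid cells, so a T-ALL spleen holds leukemic and host cells, and tissue and strain of the animal part with the comparison to thymus. The thymus is a normal organ with its own dividing cells, not a resting T-cell control. The 2 T-ALL groups share the host strain, the missing genes and the tissue.

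Values are log2(RPKM + 1), where RPKM (a read count divided by library size and transcript length) had been brought to a common 75th percentile in every library. A level or a difference below is on that log2 scale unless RPKM is named, and a difference of 1 is a doubling of RPKM + 1. Differences were tested with limma across all genes tested and called at an adjusted p under 0.05 (Benjamini-Hochberg). Notch3 itself lay between 2.62 and 4.29 in thymus. It spanned 3.17 to 5.78 among WT T-ALL libraries, and 2.59 to 3.74 among Notch3 KO T-ALL libraries. The Notch3 KO libraries thus overlapped both other groups, and the source of the Notch3 signal in them was not tested. All 11 T-cell markers examined were present in every group, with a sum of 4370 to 5200 RPKM for thymus and, for WT and Notch3 KO T-ALL, of 1920 to 4410 and 2830 to 3500 RPKM. The 14 erythroid markers summed to 5.46 to 11.4 RPKM in the thymus libraries, 118 to 1600 RPKM in the WT and 763 to 3260 RPKM in the Notch3 KO leukemias. The 11 neutrophil markers spanned 58.2 to 536, 647 to 85500 and 206 to 7660 RPKM in the same order. Macrophage markers (10 genes) and megakaryocyte markers (7 genes) summed to 28.2 to 470 and 4.3 to 205 RPKM in spleen, against 9.84 to 65.1 and 0.738 to 1.47 RPKM in thymus. B-cell markers (7 genes) summed to 17.6 to 23.8 RPKM in thymus and 0.687 to 5.81 in the T-ALL groups, thymic epithelium markers (8 genes) to 7.71 to 10.3 and 2.51 to 9.94, and stroma and endothelium markers (8 genes) to 32.7 to 39.1 and 33.6 to 227. Dividing erythroid and myeloid precursors also express mitotic genes, and the part of host cells in the differences from thymus was not tested by sorting.

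Many mitotic genes carry a shared pair of promoter elements. The cell cycle genes homology region (CHR) is bound by the MuvB complex, which represses these genes in resting cells and, with B-Myb and FoxM1, activates them before division, and CCAAT boxes are bound by NF-Y. RefSeq promoter windows (GRCm38.p6, 250 bases before to 50 bases after each annotated start site) were found for 31 of the 38 genes. No window was matched for Ccna2, Aurkb, Incenp, Spc24, Kif20a, Tpx2 and Foxm1. The windows were searched on both strands for the CHR letters TTTGAA or TTCGAA and for CCAAT, which can overlap by at most 1 base. A CHR match was present in 23 of the 31 genes (74.2%), against 16.8% of the 9582 tested genes with a window and 21.7% of all 27025 genes with a window. CCAAT was present in 22 of the 31 (71.0%), against 43.6% of tested genes, and both were present in 20 (64.5%), against 7.24%. The 6 genes with neither were Birc5, Mad2l1, Pttg1, Nuf2, Kif18a and Nusap1. Of 33 DNA replication genes with a window, 6 (18.2%) held CHR letters and 21 (63.6%) held CCAAT, and of 57 other mitotic genes 34 (59.6%) and 41 (71.9%) did. These are letter matches in a fixed window and were not tested as binding sites.

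The 100 bases before the start site are shown, 5′ to 3′ on the strand of the gene, for 4 of the genes with both elements in that stretch, and for Nuf2, the gene with the largest difference between WT T-ALL and thymus, which has neither. Capitals mark the CHR letters (TTTGAA, or TTCAAA read on the other strand) and the CCAAT box (CCAAT, or ATTGG read on the other strand). The stretches lie at chr10:69352913-69353012 (minus strand, Cdk1), chr4:118437344-118437443 (minus, Cdc20), chr2:164769829-164769928 (plus, Ube2c), chr19:37376282-37376381 (plus, Kif11) and chr1:169531465-169531564 (minus, Nuf2).
Cdk1: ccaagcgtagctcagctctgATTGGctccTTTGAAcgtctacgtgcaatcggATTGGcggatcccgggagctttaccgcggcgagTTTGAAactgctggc
Cdc20: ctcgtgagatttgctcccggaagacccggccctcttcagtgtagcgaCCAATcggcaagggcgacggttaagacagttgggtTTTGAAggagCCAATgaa
Ube2c: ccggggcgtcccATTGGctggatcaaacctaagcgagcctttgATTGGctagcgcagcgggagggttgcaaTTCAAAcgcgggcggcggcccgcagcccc
Kif11: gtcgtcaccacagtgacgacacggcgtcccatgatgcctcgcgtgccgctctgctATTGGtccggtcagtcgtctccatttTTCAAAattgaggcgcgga
Nuf2: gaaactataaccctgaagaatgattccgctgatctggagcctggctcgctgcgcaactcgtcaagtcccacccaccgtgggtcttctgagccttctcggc
Cdk1 holds 2 CHR and 2 CCAAT matches in this stretch, Cdc20 and Ube2c 1 and 2, and Kif11 1 of each.

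The mean over the 38 genes lay between 4.59 and 5.15 in the 6 thymus libraries, between 5.27 and 5.99 in the 14 WT T-ALL libraries and at 5.66, 6.02 and 5.93 in the 3 Notch3 KO T-ALL libraries. Each leukemic library was above each thymus library on this mean. The group means were 4.99 ± 0.21 (SD, n = 6), 5.67 ± 0.24 (SD, n = 14) and 5.87 ± 0.19 (SD, n = 3). As a share of the summed RPKM of all genes, the 38 genes took 0.22% to 0.364% for thymus, 0.222% to 0.491% for WT and 0.302% to 0.47% for Notch3 KO leukemias, so on this share the groups overlapped.

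**Figure D1:**
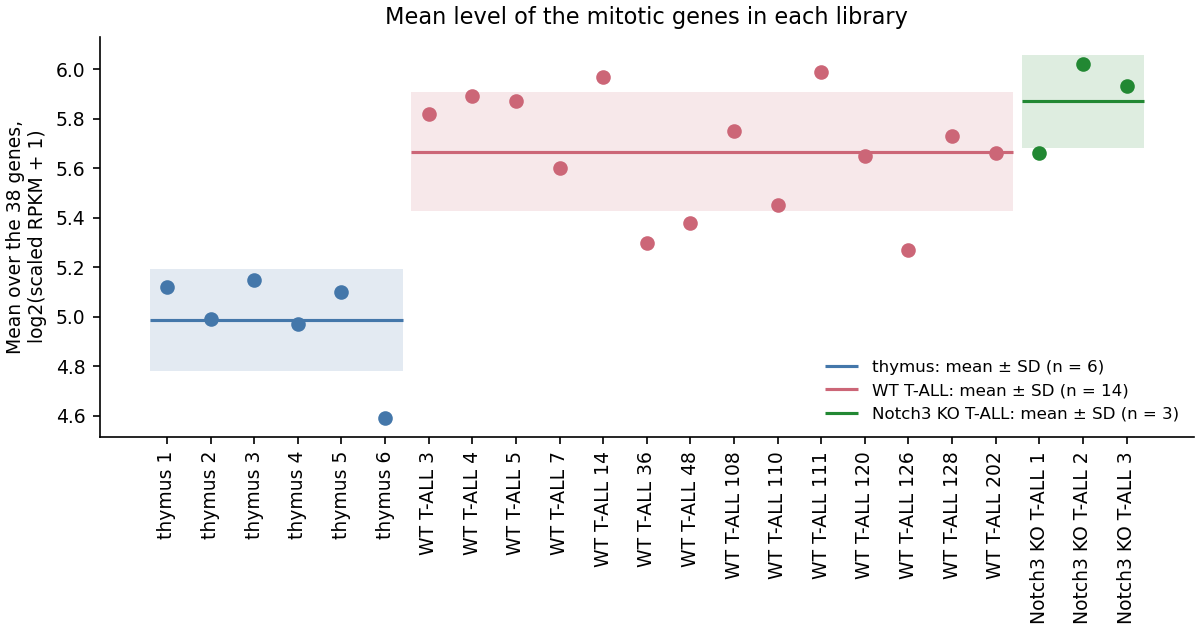
Mean level of the 38 mitotic genes in each library, in log2(scaled RPKM + 1), with a line and a band for the mean ± SD of each group. The 17 leukemic libraries lie between 5.27 and 6.02 and the 6 thymus libraries between 4.59 and 5.15, with thymus 6 at 4.59.

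In WT T-ALL, 34 of the 38 genes rose against thymus and 0 fell. In the same comparison 29.3% of the 11919 genes tested were called higher. The differences ran from 0.37 for Prc1 to 0.99 for Nuf2, with standard errors of at most 0.25, and their median was 0.67, against a median of 0.08 over all genes tested. The 4 genes that did not pass were Pttg1 (0.41 ± 0.23 SE, adjusted p = 0.134), Cenpf (0.48 ± 0.21, adjusted p = 0.0587), Kif18a (0.44 ± 0.19, adjusted p = 0.0559) and Foxm1 (0.57 ± 0.25, adjusted p = 0.0541). For 3 of the 38 genes, Nuf2, Kif2c and Tpx2, all 14 WT T-ALL libraries lay above all 6 thymus libraries. For Tpx2 this was by less than the last digit given (5.20 in both groups). Of all genes tested 8.42% were separated in that direction, so nothing particular to the 38 genes is read from this count. The differences were modest in size and the WT T-ALL libraries varied, so that a gene could rise on average while several libraries stayed in the thymus range.

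The scaling of the libraries bears on these counts. With the libraries rescaled to an equal sum without hemoglobin and mitochondrial genes, the median of all genes moved from 0.08 to -0.27 and that of the 38 genes from 0.67 to 0.27. Such a rescaling moves all genes of a library nearly alike. In WT T-ALL 7 of the 38 genes (18.4%) then passed (Cdk1, Ccnb1, Birc5, Bub1, Ttk, Nuf2 and Kif2c), near the 15.7% of all genes tested that were called higher. The other 27 calls were lost at equal sums, also where the paragraphs on single genes do not repeat it. The differences of Top2a (-0.01), Prc1 (-0.04) and Spc25 (-0.02) turned while Kif23 lay at 0.00. After quantile normalization 26 of the 38 (68.4%) and 23.9% of all genes were called higher, and the calls of Incenp, Ube2c, Spc25, Kif11, Prc1, Nusap1, Mki67 and Top2a were lost. The share of all calls that were higher was 56.8% as deposited, 48.5% after quantile normalization and 28.8% at equal sums. With the erythroid markers as a covariate limma called 0 of the 38 genes (7 under an unadjusted p of 0.05), while 102 genes in all were called higher and 262 lower and the median of the 38 genes was 0.62. That score separates every leukemic spleen from every thymus, so it and the group largely cannot be told apart. Across the 14 WT T-ALL libraries the mean of the 38 genes had a Pearson r of 0.02 and a Spearman rho of 0.12 with the erythroid marker mean, and of -0.21 and -0.21 with the neutrophil marker mean (without the 2 libraries farthest from the median, r = 0.11 and -0.13), given as a description.

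**Figure D2:**
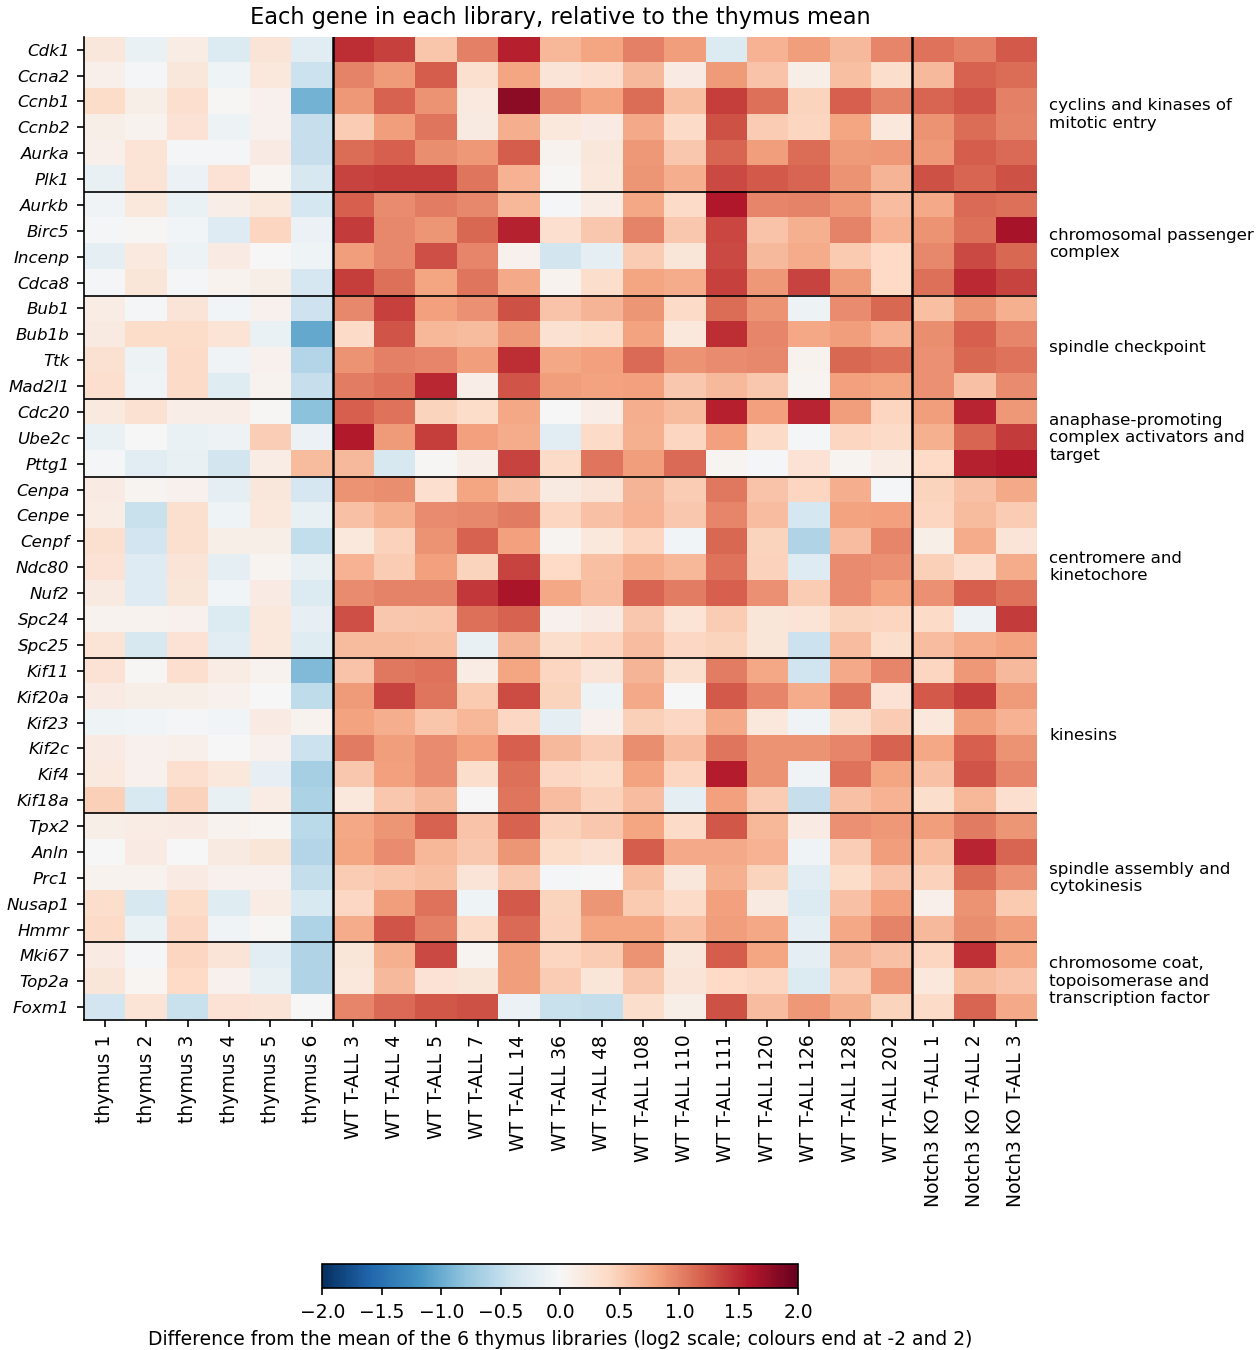
Difference of each of the 38 genes (vertical, grouped by role) in each library (horizontal) from the mean of the 6 thymus libraries, on the log2 scale, with red above and blue below. Most fields of the leukemic libraries are red, thymus 6 is blue over most genes, and WT T-ALL 36, 48 and 126 are the palest leukemic libraries.

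In the values as deposited, the cyclins and kinases of mitotic entry rose together, 6 of 6 in both T-ALL groups. Their median difference from thymus was 0.86 in WT T-ALL and 1.09 in Notch3 KO T-ALL. Cdk1 encodes the kinase whose activation by cyclin B starts mitosis. Its level had a lowest, median and highest value of 5.92, 6.21 and 6.45 in thymus and of 5.93, 7.04 and 7.75 in WT T-ALL, and was 7.28, 7.21 and 7.43 in Notch3 KO T-ALL 1, 2 and 3. All Notch3 KO libraries and 13 of the 14 WT T-ALL libraries were above all thymus libraries. Cdk1 was 0.87 ± 0.18 higher in WT T-ALL (adjusted p = 0.000481) and 1.11 ± 0.27 higher in Notch3 KO T-ALL (adjusted p = 0.00237), or 1.82-fold and 2.16-fold on the RPKM + 1 scale. The exception was WT T-ALL 111, where Cdk1 was 5.93 although the mean of the 38 genes was the highest of its group at 5.99.

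Ccnb1, the cyclin B partner of Cdk1, ran from 4.40 to 5.72 in thymus (median 5.45) and from 5.54 to 7.13 in WT T-ALL (median 6.32), and was 6.52, 6.60 and 6.35 in Notch3 KO T-ALL. The lowest thymus value was that of thymus 6, and again 13 of 14 WT T-ALL libraries were above the whole thymus group. The difference was 0.97 ± 0.19 in WT T-ALL (adjusted p = 0.000223) and 1.14 ± 0.28 in Notch3 KO T-ALL (adjusted p = 0.00253). Plk1, the polo-like kinase that acts on centrosomes, kinetochores and the anaphase-promoting complex, ran from 4.38 to 4.98 in thymus (median 4.65) and from 4.71 to 6.08 in WT T-ALL (median 5.68), and was 5.97, 5.86 and 5.97 in Notch3 KO T-ALL. WT T-ALL 36 (4.71) and WT T-ALL 48 (4.90) stayed within the thymus range. Plk1 was 0.93 ± 0.18 higher in WT T-ALL (adjusted p = 0.00016) and 1.24 ± 0.26 higher in Notch3 KO T-ALL (adjusted p = 0.000673). Neither call of Plk1 was kept at equal sums (0.53, adjusted p = 0.0681, and 0.79, adjusted p = 0.0742). Aurka, the centrosomal Aurora kinase, rose by 0.84 and 1.07, Ccnb2 by 0.58 and 1.00, and Ccna2, whose cyclin also serves DNA replication, by 0.57 and 0.98. The WT T-ALL call of Ccnb2 was lost with a correction for GC content and length (0.29, adjusted p = 0.148).

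The 4 genes of the chromosomal passenger complex, which corrects wrong attachments of chromosomes to the spindle, all rose in both groups, with median differences of 0.82 in WT T-ALL and 1.18 in Notch3 KO T-ALL. Birc5 (survivin), the subunit that brings the complex to the centromere, ran from 6.07 to 6.76 in thymus (median 6.28) and from 6.66 to 7.86 in WT T-ALL (median 7.25), and was 7.23, 7.42 and 7.98 in Notch3 KO T-ALL. All but 1 WT T-ALL library were above the thymus range. The difference was 0.90 ± 0.17 (adjusted p = 0.000103) and 1.22 ± 0.24 (adjusted p = 0.000428). Cdca8 (borealin), another targeting subunit, ran from 4.88 to 5.45 in thymus (median 5.23) and from 5.29 to 6.60 in WT T-ALL (median 6.04), and at 6.31, 6.70 and 6.56 had the largest difference of the 38 genes between Notch3 KO T-ALL and thymus, 1.31 ± 0.24 (adjusted p = 0.000199), against 0.85 ± 0.16 in WT T-ALL (adjusted p = 0.000183). Incenp, the scaffold of the complex, ran from 5.29 to 5.66 in thymus (median 5.42) and from 5.10 to 6.78 in WT T-ALL (median 6.06), and was 6.42, 6.78 and 6.62 in Notch3 KO T-ALL. WT T-ALL 14, 36 and 48 stayed at or under the thymus range for Incenp, which rose by 0.57 ± 0.20 in WT T-ALL (adjusted p = 0.0185) and by 1.14 ± 0.29 in Notch3 KO T-ALL (adjusted p = 0.0032). The WT T-ALL call was lost after quantile normalization (0.49, adjusted p = 0.0637). Aurkb, the kinase of the complex, rose by 0.79 and 1.00.

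All 4 spindle checkpoint genes rose in both groups, with median differences of 0.81 and 0.92. Mad2l1 encodes the protein that holds Cdc20 inactive while a chromosome is unattached. It ran from 4.83 to 5.68 in thymus (median 5.30) and from 5.35 to 6.81 in WT T-ALL (median 6.10), and was 6.21, 5.88 and 6.24 in Notch3 KO T-ALL. The WT T-ALL libraries 7 (5.43) and 126 (5.35) lay inside the thymus range. The difference was 0.78 ± 0.17 (adjusted p = 0.00079) and 0.81 ± 0.25 (adjusted p = 0.0142), and the second call was lost without Notch3 KO T-ALL 1 (adjusted p = 0.0588) or 3 (adjusted p = 0.0699). Ttk, the kinase that sets the checkpoint off, had the lowest thymus mean of the 38 genes, with a range of 2.48 to 3.45 in thymus (median 3.07) and 3.13 to 4.54 in WT T-ALL (median 4.02), and was 3.98, 4.22 and 4.16 in Notch3 KO T-ALL. It rose by 0.93 ± 0.15 (adjusted p = 2.5e-05) and 1.05 ± 0.22 (adjusted p = 0.000689), and only WT T-ALL 126 stayed in the thymus range. Bub1 rose by 0.84 and 0.73 (not past the threshold in Notch3 KO T-ALL without library 2, adjusted p = 0.0622, or 3, adjusted p = 0.0505) and Bub1b (BubR1) by 0.73 and 1.04.

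Of the 3 genes around the anaphase-promoting complex, the ubiquitin ligase that ends the checkpoint, 2 rose in WT T-ALL and 3 in Notch3 KO T-ALL. Ube2c, the ubiquitin-conjugating enzyme of this ligase, ran from 6.56 to 7.18 in thymus (median 6.59) and from 6.48 to 8.28 in WT T-ALL (median 7.27), and was 7.40, 7.86 and 8.09 in Notch3 KO T-ALL. Only 7 of 14 WT T-ALL libraries were above the thymus range, whose upper end was set by thymus 5. The difference was 0.62 ± 0.20 (adjusted p = 0.0131) and 1.09 ± 0.29 (adjusted p = 0.00534). Neither call was kept after quantile normalization (0.36, adjusted p = 0.155, and 0.75, adjusted p = 0.0533). Cdc20, the activator of the ligase, rose by 0.75 and 1.07, the latter not past the threshold without Notch3 KO T-ALL 2 (adjusted p = 0.058). Pttg1 (securin), the inhibitor of separase that the ligase destroys, ran from 3.92 to 4.93 in thymus (median 4.19) and from 3.98 to 5.65 in WT T-ALL (median 4.51), and was 4.70, 5.84 and 5.88 in Notch3 KO T-ALL. Thymus 6, the lowest thymus library for most of the 38 genes, had the highest thymus level of Pttg1. Pttg1 did not pass in WT T-ALL and was 1.18 ± 0.33 higher in Notch3 KO T-ALL (adjusted p = 0.00761), a call lost without Notch3 KO T-ALL 3 (0.98, adjusted p = 0.0659). With the erythroid covariate its difference turned to -0.79 in WT T-ALL and -0.62 in Notch3 KO T-ALL, neither past the threshold.

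**Figure D3:**
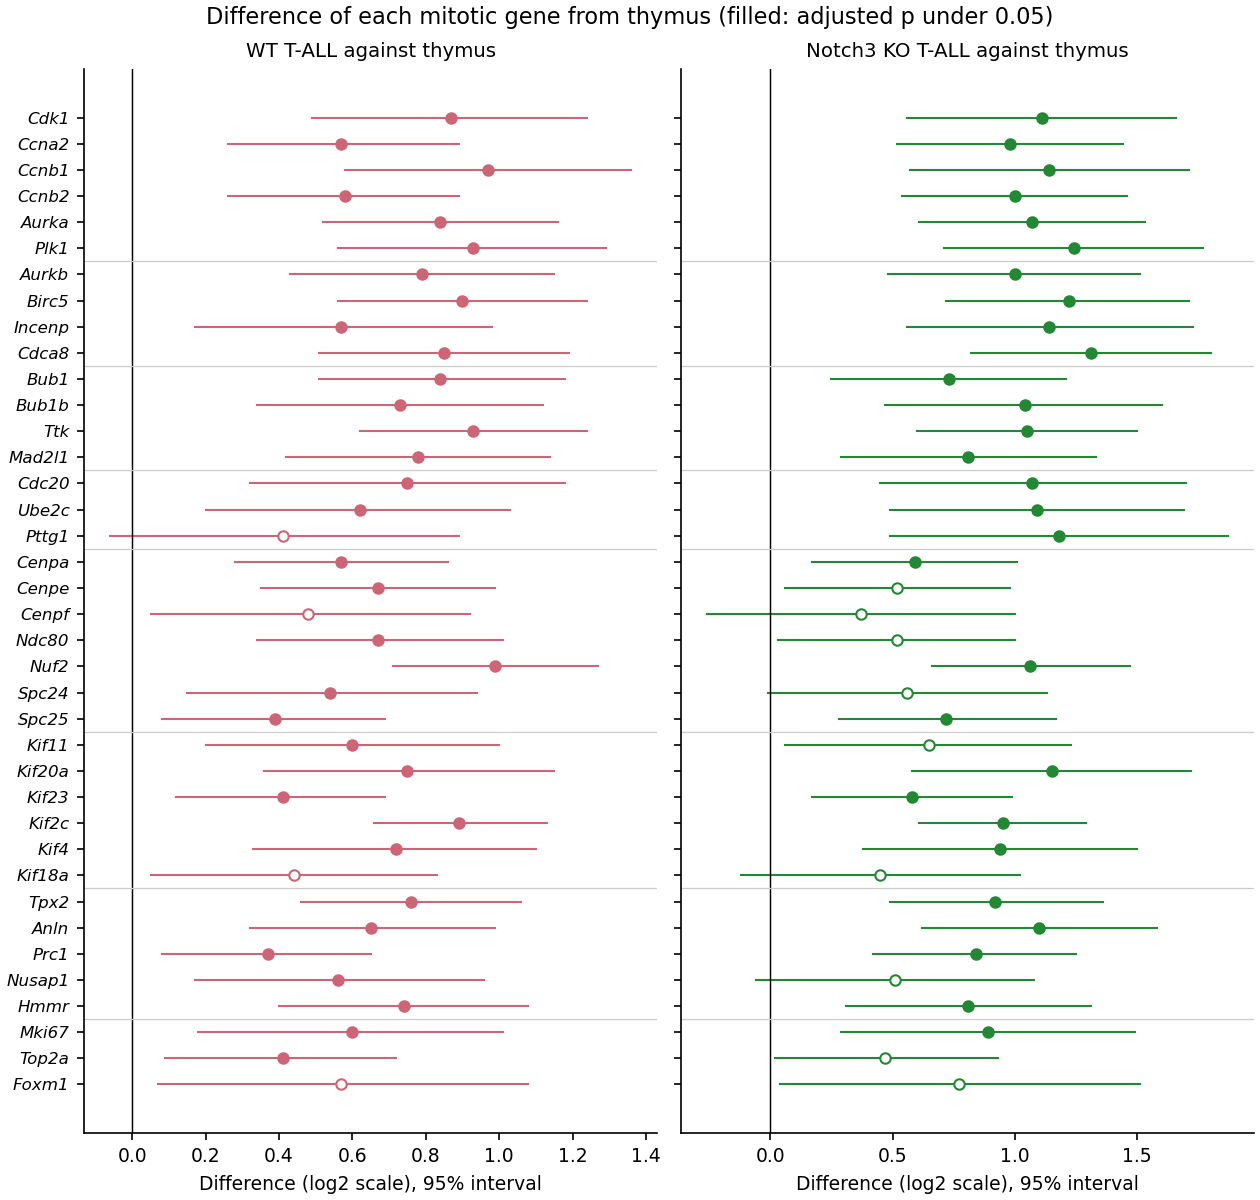
Difference of each of the 38 genes from thymus (points) with its 95% interval (lines), on the log2 scale, for WT T-ALL (left) and Notch3 KO T-ALL (right). Filled points passed the test, 34 on the left and 29 on the right, and all points lie above 0.

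Of the 7 centromere and kinetochore genes, 6 were called higher in WT T-ALL and 3 in Notch3 KO T-ALL, with median differences of 0.57 and 0.56. Nuf2, a subunit of the Ndc80 complex that grips microtubules, ran from 4.15 to 4.66 in thymus (median 4.47) and from 4.93 to 6.05 in WT T-ALL (median 5.39), and was 5.34, 5.61 and 5.50 in Notch3 KO T-ALL. The T-ALL libraries did not overlap with thymus, and the difference was 0.99 ± 0.14 (adjusted p = 3e-06) and 1.06 ± 0.20 (adjusted p = 0.000232), or 1.99-fold and 2.09-fold on the RPKM + 1 scale. The other subunits of the same complex had smaller differences, which were not tested against that of Nuf2. Ndc80 was 0.67 ± 0.16 higher in WT T-ALL (adjusted p = 0.00154), with a value of 0.52 ± 0.24 in Notch3 KO T-ALL that did not pass (adjusted p = 0.0851). Spc24 was 0.54 ± 0.19 higher in WT T-ALL (adjusted p = 0.0203; 0.0551 without thymus 4) and its value of 0.56 ± 0.28 in Notch3 KO T-ALL did not pass (adjusted p = 0.116), with levels of 5.26, 4.77 and 6.28. Spc25 rose by 0.39 and 0.72, with the WT T-ALL call lost after quantile normalization and without thymus 2, 4 or 6 (adjusted p of 0.0589, 0.0954, 0.0796 and 0.0844) and a value of -0.02 at equal sums (adjusted p = 0.922), and the other call lost without Notch3 KO T-ALL 3 (adjusted p = 0.0524). Cenpa, the histone variant that marks the centromere, ran from 5.24 to 5.80 in thymus (median 5.64) and from 5.54 to 6.63 in WT T-ALL (median 6.15), and was 6.02, 6.15 and 6.32 in Notch3 KO T-ALL. It rose by 0.57 ± 0.14 (adjusted p = 0.00184) and 0.59 ± 0.20 (adjusted p = 0.0255). The Notch3 KO T-ALL call of Cenpa was lost after quantile normalization (adjusted p = 0.0919) and without thymus 6 (0.0544) or Notch3 KO T-ALL 2 (0.054) or 3 (0.12). Cenpe, a kinetochore motor, rose by 0.67 in WT T-ALL and its 0.52 in Notch3 KO T-ALL did not pass (adjusted p = 0.0699). Cenpf passed in neither group.

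Of the 6 kinesins, the motors that slide or shorten microtubules, 5 rose in WT T-ALL and 4 in Notch3 KO T-ALL. Kif11 (Eg5), which pushes the spindle poles apart, ran from 4.76 to 5.98 in thymus (median 5.75) and from 5.24 to 6.73 in WT T-ALL (median 6.35), and was 6.06, 6.51 and 6.29 in Notch3 KO T-ALL. The WT T-ALL libraries 7, 48, 110 and 126 lay inside the thymus range. Kif11 rose by 0.60 ± 0.19 in WT T-ALL (adjusted p = 0.013; 0.48 and adjusted p = 0.0532 after quantile normalization, 0.43 and 0.064 without thymus 6), and its 0.65 ± 0.28 in Notch3 KO T-ALL did not pass (adjusted p = 0.0735) although all 3 libraries were above all thymus libraries. Kif2c, a microtubule depolymerase, had the smallest SD among WT T-ALL libraries of the 38 genes, 0.20, and rose by 0.89 ± 0.11 and 0.95 ± 0.16. Kif20a and Kif23, motors of cytokinesis, rose by 0.75 and 0.41 in WT T-ALL and by 1.15 and 0.58 in Notch3 KO T-ALL, and Kif4, a chromosome-borne motor, by 0.72 and 0.94. In Notch3 KO T-ALL the calls of Kif23 (0.46, adjusted p = 0.12) and Kif4 (0.78, adjusted p = 0.0526) were lost without library 2, and that of Kif23 also without library 3 (0.52, adjusted p = 0.108). Kif18a passed in neither group.

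The 5 genes of spindle assembly and cytokinesis rose in WT T-ALL, and 4 of them in Notch3 KO T-ALL. Prc1, which bundles the microtubules of the central spindle, ran from 4.53 to 5.17 in thymus (median 5.08) and from 4.79 to 5.71 in WT T-ALL (median 5.48), and was 5.47, 6.13 and 5.92 in Notch3 KO T-ALL. It rose by 0.37 ± 0.14 in WT T-ALL (adjusted p = 0.0296; -0.04 and not past the threshold at equal sums, 0.33 and adjusted p = 0.0621 after quantile normalization, 0.27 and 0.114 without thymus 6) and by 0.84 ± 0.20 in Notch3 KO T-ALL (adjusted p = 0.00234). Nusap1, which links microtubules near chromosomes, ran from 5.71 to 6.40 in thymus (median 5.97) and from 5.76 to 7.26 in WT T-ALL (median 6.59), and was 6.13, 6.93 and 6.55 in Notch3 KO T-ALL. Its groups overlapped, with a rise of 0.56 ± 0.19 in WT T-ALL (adjusted p = 0.0172; 0.40 and adjusted p = 0.0619 after quantile normalization, 0.50 and 0.0504 without thymus 2) and a value of 0.51 ± 0.28 in Notch3 KO T-ALL that did not pass (adjusted p = 0.153). Tpx2, which activates Aurka on the spindle, rose by 0.76 and 0.92, Anln (anillin), a scaffold of the contractile ring, by 0.65 and 1.10, and Hmmr, a spindle pole protein, by 0.74 and 0.81.

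Mki67 encodes the Ki-67 protein that coats mitotic chromosomes and is the usual marker of dividing cells. Its level ran from 6.13 to 7.17 in thymus (median 6.79) and from 6.56 to 8.06 in WT T-ALL (median 7.37), and was 7.17, 8.20 and 7.50 in Notch3 KO T-ALL. In WT T-ALL 5 of the 14 libraries stayed within the thymus range, and Mki67 rose by 0.60 ± 0.20 (adjusted p = 0.0161) and by 0.89 ± 0.29 in Notch3 KO T-ALL (adjusted p = 0.0188). The WT T-ALL call of Mki67 was lost after quantile normalization (0.33, adjusted p = 0.213), at equal sums (0.18, adjusted p = 0.512) and without thymus 6 (0.48, adjusted p = 0.063). That in Notch3 KO T-ALL was lost after quantile normalization (0.54, adjusted p = 0.184), at equal sums and without Notch3 KO T-ALL 2 (0.60, adjusted p = 0.143). Top2a, the topoisomerase that untangles sister chromatids, had the highest level of the 38 genes in thymus, 6.78 to 7.79 (median 7.44, mean 170 ± 38.5 RPKM). It ran from 7.11 to 8.25 in WT T-ALL (median 7.80, mean 224 ± 43.5 RPKM) and was 7.60, 8.02 and 7.96 in Notch3 KO T-ALL. Its difference was among the smallest, 0.41 ± 0.15 in WT T-ALL (adjusted p = 0.0288; -0.01 and not past the threshold at equal sums, 0.06 and adjusted p = 0.754 after quantile normalization, 0.37 and 0.0661 without thymus 5, 0.29 and 0.12 without thymus 6), and 0.47 ± 0.22 in Notch3 KO T-ALL, which did not pass (adjusted p = 0.092). Foxm1, the transcription factor that drives many of the other genes, had the widest spread in WT T-ALL, an SD of 0.61, and passed in neither group.

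In Notch3 KO T-ALL, 29 of the 38 genes rose against thymus and 0 fell, where 21.2% of the 11919 genes tested were called higher. The differences ran from 0.37 for Cenpf to 1.31 for Cdca8, with a median of 0.95 against 0.08 over all genes. The 3 libraries lay above all 6 thymus libraries for 32 of the 38 genes, and for 23.9% of all genes tested. The genes that did not pass were Cenpe, Cenpf, Ndc80, Spc24, Kif11, Kif18a, Nusap1, Top2a and Foxm1. With only Notch3 KO T-ALL and thymus in the fit, 33 of the 38 passed (86.8% against 26.5% of all genes). The genes gained were Foxm1 (adjusted p = 0.0145), Ndc80 (0.0251), Cenpe (0.0292) and Kif11 (0.05 as rounded). At equal sums 7 of the 38 passed (Cdk1, Ccnb1, Birc5, Cdca8, Ttk, Pttg1 and Nuf2; 18.4% against 10.7% of all genes), the value of Cenpf turned to -0.07, with the all-gene median at -0.31 and the share of higher calls at 26.0% (56.5% as deposited, 46.2% after quantile normalization). After quantile normalization 26 passed (68.4% against 17.3% of all genes). With the erythroid covariate limma called 0 (2 under an unadjusted p of 0.05), while 8 genes in all were called higher and 20 lower and the median of the 38 genes was 0.71. Both comparisons use the same 6 thymus libraries, so the 2 sets of differences are not independent of each other.

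Between Notch3 KO and WT T-ALL, limma called 0 of the 38 genes, and 2 were under an unadjusted p of 0.05, Pttg1 and Prc1. Of the 11677 genes tested, 0.591% were called higher, and for 0.325% all 3 Notch3 KO libraries lay above all 14 WT T-ALL libraries, which held for 0 of the 38. Differences ran from -0.15 for Cenpe to 0.77 for Pttg1, with a median of 0.20 against 0.00 over all genes. The largest were Pttg1 (0.77 ± 0.32, adjusted p = 0.431), Incenp (0.57 ± 0.29, adjusted p = 0.625), Prc1 (0.47 ± 0.19, adjusted p = 0.418) and Ube2c (0.47 ± 0.29, adjusted p = 0.774). A difference that did not pass is not shown to be absent: the 95% interval was -0.28 to 0.52 for Ttk and -0.32 to 0.46 for Nuf2, both of which include 0 and a rise as large as that of Prc1 in WT T-ALL against thymus.

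A fixed list held 66 other mitotic genes, among them further kinetochore, condensin and spindle genes. Of these, 51 were called higher and 1 lower in WT T-ALL (median 0.65) and 45 and 1 in Notch3 KO T-ALL (median 0.78). Of all genes tested, 29.3% were called higher and 22.3% lower in WT T-ALL, and 21.2% and 16.3% in Notch3 KO T-ALL. The largest differences were those of Cenpw (1.53 ± 0.34), Cenph (1.43 ± 0.16) and Cenpm (1.37 ± 0.22), subunits of the inner kinetochore, in WT T-ALL, and of Cdc25b (1.62 ± 0.34), the phosphatase that activates Cdk1, Cenph (1.52 ± 0.23) and Espl1 (1.45 ± 0.40), the protease separase, in Notch3 KO T-ALL. The gene that fell was Mad1l1, the kinetochore anchor of Mad2l1, by 0.93 in WT T-ALL (4.05 ± 0.36 against 4.98 ± 0.11, adjusted p = 2.85e-05) and by 0.60 in Notch3 KO T-ALL (adjusted p = 0.0348), and it was picked out here after its values were seen. Of 40 DNA replication genes, 37 were called higher in each T-ALL group, with medians of 1.02 and 1.15, beside the same 29.3% and 21.2% of all genes. The counts of both lists are given for the values as deposited only, not for equal sums or quantile normalization. Their largest differences were those of Tk1 (1.48 ± 0.19), Dut (1.45 ± 0.23), both of thymidine supply, and Mcm10 (1.44 ± 0.18), an initiation factor, in WT T-ALL, and Cdc6 (1.79 ± 0.34), which loads the replicative helicase, Tk1 (1.72 ± 0.27) and Mcm10 (1.66 ± 0.25) in Notch3 KO T-ALL. Between the T-ALL groups limma called 0 genes of either list, with 1 of each under an unadjusted p of 0.05.

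**Figure D4:**
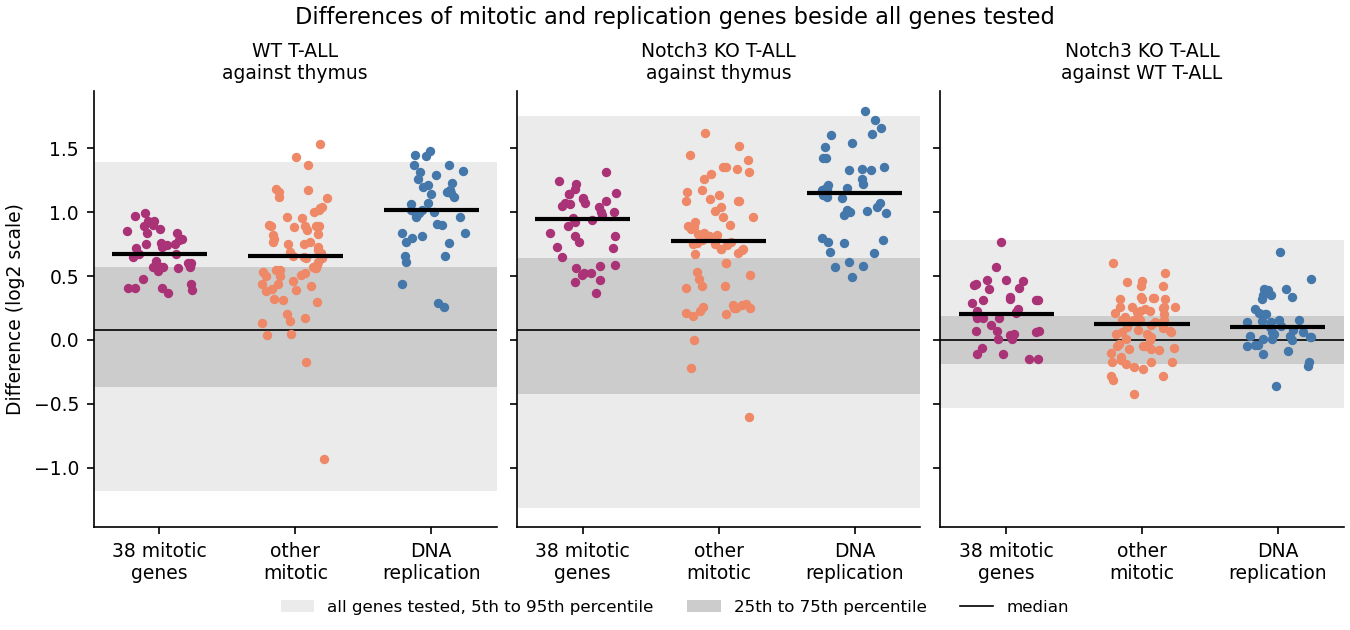
Differences on the log2 scale of the 38 mitotic genes, the 66 other mitotic genes and the 40 DNA replication genes (1 point a gene, thick bars at the medians) in the 3 comparisons, over the range of all genes tested (light grey 5th to 95th percentile, dark grey 25th to 75th, thin line median). In WT T-ALL against thymus the medians are 0.67, 0.65 and 1.02, and in Notch3 KO T-ALL against thymus 0.95, 0.78 and 1.15.

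Set beside DNA replication genes in the same library, the mitotic genes had about the same mean level in thymus, the difference (mitotic minus replication) lying between -0.09 and 0.22. It lay between -0.73 and 0.02 in WT T-ALL and at -0.35, 0.07 and -0.44 in Notch3 KO T-ALL. The difference was below that of every thymus library in 12 of 14 WT T-ALL libraries, all but WT T-ALL 5 and 7, though in WT T-ALL 110 (-0.09) by less than the last digit given. It was lowest in WT T-ALL 126 (5.27 against 6.00). Across the 14 WT T-ALL libraries the mean of the 38 genes had a Pearson r of 0.66 with that of the replication genes and of 0.98 with that of the other mitotic genes (Spearman rho 0.66 and 0.96, and r = 0.56 and 0.97 without the 2 farthest libraries). These are descriptions over libraries that share their scaling and no p is given.

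**Figure D5:**
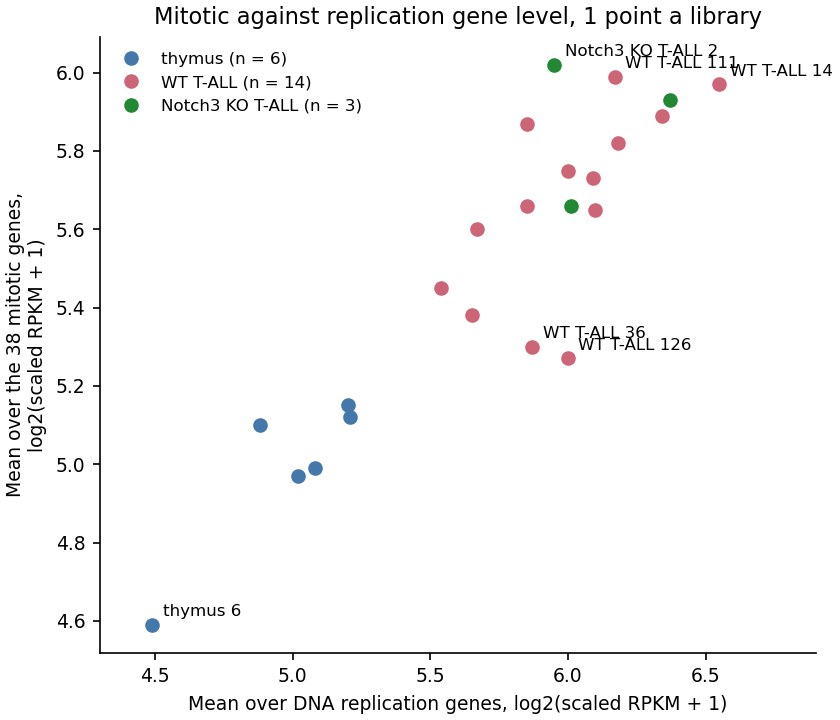
Mean level of the 38 mitotic genes (vertical) against that of the 40 DNA replication genes (horizontal), both in log2(scaled RPKM + 1), 1 point a library. Thymus libraries lie at the lower left, and WT T-ALL 36 and 126 lie lowest among leukemic libraries for mitotic genes while their replication means are 5.87 and 6.00.

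Of 22 regulators of mitotic genes, 5 were called higher and 5 lower in WT T-ALL, where 29.3% and 22.3% of all genes tested were. In Notch3 KO T-ALL 7 were called higher and 2 lower, where 21.2% and 16.3% of all genes were, and nothing particular to the regulators is read from these counts. In WT T-ALL the largest differences were falls of Cdkn1b (p27), an inhibitor of cyclin-dependent kinases, by 1.57, of Rbl2 (p130), the pocket protein of the repressive MuvB complex in resting cells, by 1.52, and of E2f2 by 1.32. In Notch3 KO T-ALL they were a rise of Mybl2 (B-Myb) by 1.79 ± 0.32 (1.26 ± 0.22 in WT T-ALL) and falls of Rbl2 by 1.57 and of Cdkn1b by 1.42. Between the T-ALL groups limma called 0 of them, with 3 under an unadjusted p of 0.05.

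The 14 WT T-ALL libraries differed among themselves about as much for these genes as for others, with a median SD of 0.38 against 0.41 over all genes tested, and in thymus 0.26 against 0.23. The number of the 38 genes above all thymus libraries was 18 in WT T-ALL 126, 20 in WT T-ALL 36, 21 in WT T-ALL 48, 27 in WT T-ALL 7 and 28 in WT T-ALL 110, and 34 to 38 in the other 9 libraries. Mitochondrial genes took 45.9% of the summed RPKM in WT T-ALL 7 and 10.3% to 20.9% in the other WT T-ALL libraries, and 24.2% in thymus 6 against 7.3% to 14.4% in the other thymus libraries. Without thymus 6, 29 genes passed in WT T-ALL and 28 in Notch3 KO T-ALL (25.7% and 18.8% of all genes), with medians of 0.59 and 0.82. WT T-ALL 108 and 110 detected the most genes at 1 RPKM (11004 and 11011). Without them 36 genes passed in WT T-ALL and 29 in Notch3 KO T-ALL (29.8% and 22.7% of all genes), against 34 and 29 with them. Spc25 then lost its WT T-ALL call (0.37, adjusted p = 0.0543). Cenpf (0.53, adjusted p = 0.0442), Kif18a (0.48, adjusted p = 0.0408) and Foxm1 (0.63, adjusted p = 0.044) gained it.

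Base composition moved with the level of single genes in some libraries. The transcripts of the 38 genes had a median GC content of 46.4%, against 49.7% over the genes tested, from 38.2% for Kif18a to 56.0% for Plk1. In thymus 1 and 3 and WT T-ALL 14, 36 and 48, the level of all genes relative to their group fell with GC content (r between -0.47 and -0.24 across genes, which are not independent), and in WT T-ALL 126 it rose (r = 0.50). It also rose in thymus 2 (r = 0.38) and thymus 4 (r = 0.21), and lay between -0.16 and 0.19 in the other 15 libraries. The 10 genes of at least 50% GC stood 0.69 above the 28 others in WT T-ALL 126 and fell below them by 0.40, 0.47 and 0.39 in WT T-ALL 14, 36 and 48. Foxm1, at 54.6% GC, was 4.06, 3.73 and 3.70 in those 3 libraries and 5.05 in WT T-ALL 126, and 3.80 and 3.74 in thymus 1 and 3 against 4.18 to 4.46 in the other thymus libraries. No label names a batch for these libraries.

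With a correction for GC content and length, the count was 34 in WT T-ALL and 37 in Notch3 KO T-ALL, where 29.9% and 22.3% of all genes were called higher. Without thymus 1 and 3 and WT T-ALL 14, 36, 48 and 126, it was 37 and 35, with 2939 and 2608 of the 11756 genes then tested called higher, and 25 of the 38 genes were then separated from thymus in WT T-ALL, where 14.3% of all genes tested were. Of the genes that did not pass in the values as deposited, Cenpf reached 0.81 ± 0.18 (adjusted p = 0.000903), Kif18a 0.74 ± 0.15 (adjusted p = 0.000292) and Foxm1 0.70 ± 0.20 (adjusted p = 0.00524) in WT T-ALL after the correction, and passed also without those 6 libraries. Calls were lost after the correction for Ccnb2 (0.29, adjusted p = 0.148), Spc24 (0.30, adjusted p = 0.149) and Spc25 (0.23, adjusted p = 0.103), and without the 6 libraries for 0 genes. With thymus 2 left out as well, 36 genes passed in WT T-ALL, where Spc24 then did not (0.67, adjusted p = 0.0556), and 33 in Notch3 KO T-ALL, with 21.2% and 20.0% of all genes called higher. Thymus 4 was kept in all of these. Pttg1 did not pass in WT T-ALL after the correction (0.19 ± 0.20, adjusted p = 0.426) or without the 6 libraries (0.22 ± 0.27, adjusted p = 0.531). In Notch3 KO T-ALL 8 genes gained and 0 lost the call, and only Spc24 did not pass after the correction (0.26 ± 0.25, adjusted p = 0.432). All of these alternatives were chosen after seeing the data.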

How the data were processed

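Total RNA of 6 thymus and 17 T-ALL spleen samples was converted to stranded mRNA libraries. Paired reads were aligned by the authors with OSA (ArrayStudio) to transcripts of mm10, and the version is not given in the sources used here. The deposited values are log2 RPKM. Each column starts at 0 and has its 75th percentile at 3.4581 to 3.4594, the value of log2(10.0 + 1), from which the offset of 1 and the scaling were read. The deposited values are not counts. The methods of the study state 1 approximate depth that applies to all samples, so the depth of a given library is unknown and a gene at 0 has no detection limit. The offset understates fold changes of low genes. Symbols read as dates (27) were restored by gene identifier, and 24375 identifiers (99.6%) matched RefSeq GRCm38.p6. GC content and length came from GENCODE M21 (21327 genes, 87.1%).

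The 38 genes and all lists were chosen with earlier results of these data known. Genes with at least 1 RPKM in 3 fitted samples entered limma (version 3.58.1, R version 4.3.3; moderated with an intensity trend and robust variances). Differences from thymus came from 1 fit of all 23 samples, and Notch3 KO against WT T-ALL from the 17 T-ALL samples. The scripts were tested on simulated data. No label says how animals were housed or batched. The p-values set group differences against the spread between libraries within groups. They cannot tell leukemia from tissue, strain or an unlabelled batch. In the fit of all 23 samples the groups share 1 estimate of that spread. The median SD over all genes tested was 0.41 in WT T-ALL and 0.23 in thymus. Values by library, or their range, are given for Mki67, for the gene of highest mean in each of 8 roles and for the 4 largest differences of each comparison. Other genes are given by counts and differences, except for single values of Spc24, Foxm1 and the genes flagged in thymus. Alternatives were the offset (0.1), the filter (none or 5), quantile and equal-sum scaling, an erythroid covariate, each library of a group of 6 or fewer left out, the groups fitted, a replicate block and, added later, a GC and length correction (splines) and 3 sets of libraries left out. Figures were drawn with matplotlib 3.10.9.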

Additional observations from a re-analysis of the deposited data

Results flagged for a closer look

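In thymus, 1 library lay far from the other 5 for 11 of 39 values examined, the 38 genes and their mean, by Dixon's criterion for 6 samples, and for 10 of the 11 it was the low value of thymus 6. Chance alone gives such a value in about 1 in 20 groups, and values of 1 library are not independent. The mean over the 38 genes was 4.59 in thymus 6, against 4.97 to 5.15 in the others. The single genes were Ccnb1 at 4.40 (others 5.37 to 5.72), Bub1b at 4.15 (5.04 to 5.54), Cdc20 at 4.44 (5.29 to 5.57), Kif11 at 4.76 (5.66 to 5.98), Kif20a at 3.96 (4.47 to 4.64), Kif2c at 3.54 (3.97 to 4.14), Tpx2 at 4.51 (5.08 to 5.20), Anln at 2.94 (3.52 to 3.76) and Prc1 at 4.53 (5.07 to 5.17). Ube2c was the exception, high in thymus 5 at 7.18 (6.56 to 6.69). Replication genes were also lowest in thymus 6, at a mean of 4.49, and mitochondrial genes took 24.2% of its summed RPKM. Their part in the low values was not tested.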

How the results depend on the processing

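The count of genes called against thymus (34 in WT T-ALL and 29 in Notch3 KO T-ALL) lay between 26 and 37 under the offset, filter, quantile, group, GC and library-set alternatives (18.9% to 30.9% and 15.8% to 26.5% of all genes were called higher), and single left-out libraries gave 29 to 35 and 23 to 29 (25.7% to 29.6% and 13.4% to 20.9% of all genes). At equal sums it was 7 and 7, with the erythroid covariate 0 and 0. The mean difference of 0.68 in WT T-ALL became 0.27 at equal sums, and that of 0.88 in Notch3 KO T-ALL became 0.43 at equal sums and 0.68 with the covariate. Left-out libraries gave mean differences of 0.60 to 0.71, 0.80 to 0.99 and, between the T-ALL groups, 0.13 to 0.31, with 0 calls throughout. The labels do not say what their numbers stand for. Same-numbered samples had correlations of deviations of -0.22 to 0.13 (thymus and WT T-ALL) and -0.02 to 0.15 (thymus and Notch3 KO T-ALL). Samples of different numbers were not set beside them, so these values cannot decide whether samples were paired. A replicate block over the 3 shared numbers gave 17 calls in WT T-ALL, with 6 of the 20 libraries, and 27 in Notch3 KO T-ALL (10.4% and 18.2% of all genes). No replicate block was fitted between the T-ALL groups, which share 1 number.

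Against thymus, directions among the 38 genes turned for Top2a (-0.01), Prc1 (-0.04) and Spc25 (-0.02) in WT T-ALL and Cenpf (-0.07) in Notch3 KO T-ALL at equal sums, and for Pttg1 with the covariate (-0.79 in WT T-ALL, -0.62 in Notch3 KO T-ALL). Between the T-ALL groups, where 0 named genes passed, signs turned for Mad2l1 (-0.01 at equal sums; -0.03 to 0.15 over left-out libraries), Cenpa (-0.01 quantile, -0.03 equal sums, -0.07 covariate, -0.06 without 4 WT libraries; -0.06 to 0.09 over left-out libraries), Kif11 (-0.09 without 4 WT libraries; -0.06 to 0.16), Nusap1 (0.07 after GC correction; -0.25 to 0.15), Top2a (-0.02 covariate; -0.01 to 0.20) and Ccnb1 (-0.08 covariate). Of the named genes' 357 results in each comparison with thymus, those that turned included, 309 in WT T-ALL and 315 in Notch3 KO T-ALL kept their direction and side of the threshold, 45 and 32 lost the call and 9 gained it in Notch3 KO T-ALL. The causes were not tested. Only a common approximate depth is stated for the samples, and 3 Notch3 KO libraries limit what could be detected.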
